A study of Mus musculus with 6 samples.

Results

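The genes described here are those of cholesterol and fatty acid synthesis in burst-forming unit erythroid cells (BFU-E), which are early progenitors of red blood cells. They were taken from a list, made by function but with earlier results of these data known, of 34 symbols of the SREBP pathway. Of these, 33 were joined to an identifier in the count tables, out of 37620 genes in all. They make up a sterol arm of 18 genes, a fatty acid arm of 10 genes and 5 regulators, and all 33 passed the filter on low counts. Hmgcs1 was on the list and was not analysed here. The cells came from livers of 129/SvImJ mouse embryos at embryonic day 14.5. They had been depleted of cells carrying lineage markers, Sca-1, CD16/32, CD41 or CD34, and then sorted for c-kit and for the lowest 10% of CD71. The first group received 100 nM dexamethasone (Dex), a synthetic glucocorticoid, together with 10 µM GW7647, which activates the nuclear receptor PPARα. The second group received 100 nM dexamethasone without GW7647, and the third was untreated. Per the labels the treatment lasted 12 h, in serum-free medium with erythropoietin (2 U/mL), stem cell factor (100 ng/mL) and IGF-1 (40 ng/mL), a growth factor related to insulin. The labels give untreated cells no time of their own. Time in culture and the drugs therefore cannot be told apart in comparisons with untreated cells, and "with Dex" or "with both drugs" below names the group and not a cause. The column headers of 1 deposited table carry 36 h instead, and the values do not settle which time holds. Each group had 2 libraries of polyA RNA, and no group received GW7647 alone. Nothing in the labels says whether the 2 libraries of a group came from separate litters or cultures, so p-values measure only the spread between these libraries, which may be technical.

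Cholesterol is built from acetyl-CoA through mevalonate, isoprenoid diphosphates, squalene and lanosterol, and fatty acids are built from the same acetyl-CoA through malonyl-CoA. Both arms are driven by the SREBP transcription factors, which are made as membrane precursors, escorted from the endoplasmic reticulum by Scap when sterols are low, and held there by the Insig proteins when sterols are high. Dividing erythroid progenitors need both products for new membrane.

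The libraries held 35970286 to 54174801 counts, of which the 33 genes took 0.566% to 0.617%. Markers of the erythroid lineage were abundant: Gata1, a lineage transcription factor, had 10346 to 10371 normalized counts in Dex plus GW7647 cells, 10223 to 10659 in Dex cells and 11480 to 12373 in untreated cells. A normalized count is a library's count divided by its scaled depth and multiplied by the mean of these depths. Kit, the receptor used in the sort, had 12792 to 12883 normalized counts with both drugs, 12626 to 12678 with Dex and 4269 to 4309 without treatment. It was the 1 of 11 erythroid markers called higher with Dex, where 8 were called lower. Of all tested genes, 25.5% were called higher and 26.0% lower there. Globin genes took 2.75% to 2.82% of counts with both drugs, 2.96% to 3.12% with Dex and 6.48% to 7.15% without treatment. The Dex libraries were the least alike of the pairs, and the first of them had the lowest mitochondrial share (1.72%, against 2.46% to 2.88% in the other 5).

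Taken as a share of all counts, which amounts to scaling by total counts, the sterol arm was lower in both treated groups. That total includes the globin genes, whose share differed between the groups. Its 18 genes took 0.279% and 0.280% of counts with Dex plus GW7647, 0.268% and 0.267% with Dex, and 0.314% and 0.315% without treatment. The fatty acid arm took 0.250% and 0.252% with both drugs, 0.230% and 0.233% with Dex, and 0.238% in each untreated library. Its higher share with both drugs than without treatment depends on this scaling. With the scaling of the tests below, its median log2 difference there was -0.06. The sterol sum was therefore 1.12 and 1.11 times the fatty acid sum with both drugs, 1.16 and 1.15 times with Dex, and 1.32 and 1.32 times without treatment. In that ratio the 3 groups did not overlap. It was chosen after its values were seen, and with 2 libraries against 2 no permutation test of a single value can pass 0.05, so none is given. In bulk RNA, fewer cells with high levels and less RNA per cell cannot be told apart, which holds for every difference given here.

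**Figure D1:**
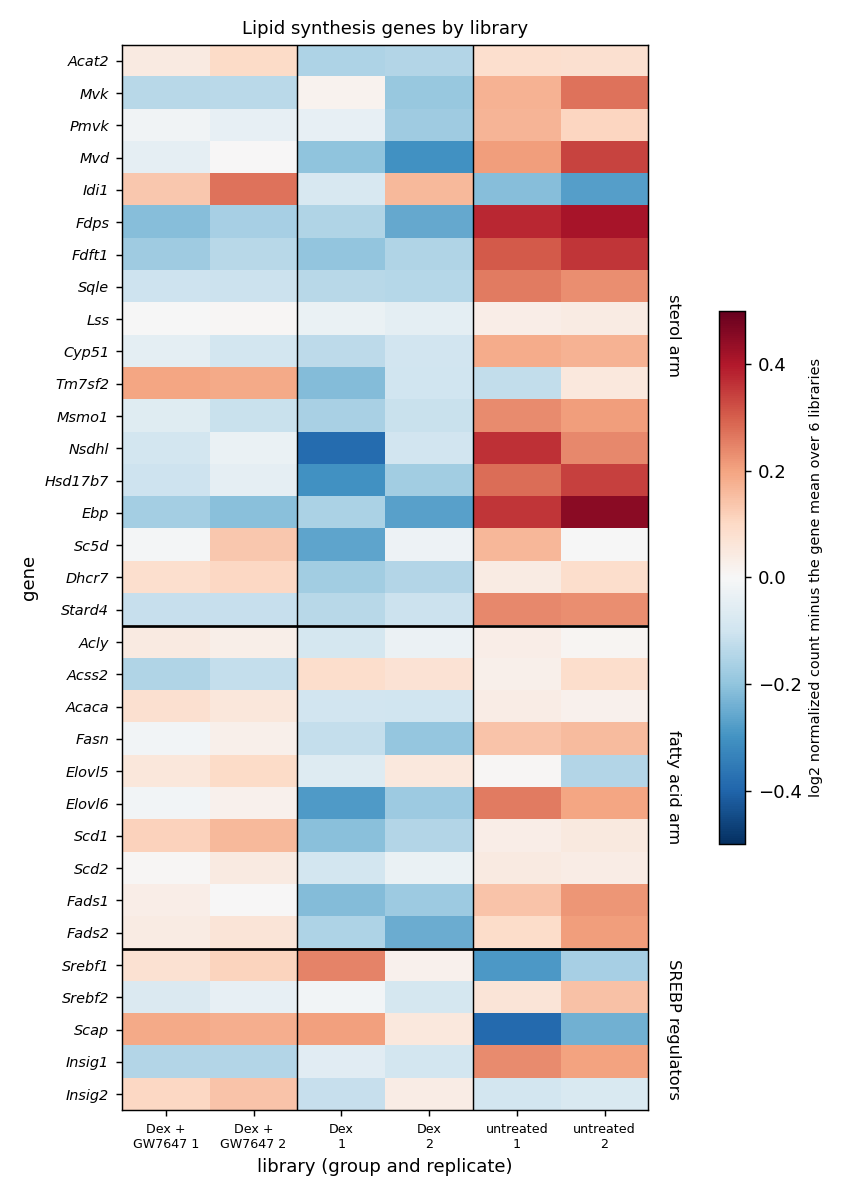
Heat map of the 33 genes (rows, in pathway order within the sterol arm, the fatty acid arm and the regulators) in the 6 libraries (columns: Dex plus GW7647, Dex, untreated). Colour gives the log2 normalized count minus the gene's mean over the 6 libraries. Most sterol genes are red in both untreated libraries and blue in the treated ones, while Idi1, Srebf1 and Scap are blue in both untreated libraries.

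In levels per length, the sterol genes stood among the more abundant transcripts of untreated BFU-E. Dividing normalized counts by the length of a gene's main transcript, the median of the 33 genes was 2012 per kb, against 397 per kb over the 12156 tested genes with a length, and 32 of the 33 lay above that value. Fdps was the highest with 17495 ± 281 normalized counts per kb (SD, n = 2, as for all means here), followed by Scd2 with 7578 ± 28.4, Msmo1 with 7025 ± 92.9 and Sqle with 4921 ± 66.8. The lowest were Acaca with 601 ± 5.65 and Insig2 with 268 ± 1.90 normalized counts per kb. Within this order, 14 of the 32 neighbouring pairs overlapped in their untreated values, so much of the middle of the order is not resolved. Lengths came from a later annotation than the authors used, and they affect only this comparison between genes.

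**Figure D2:**
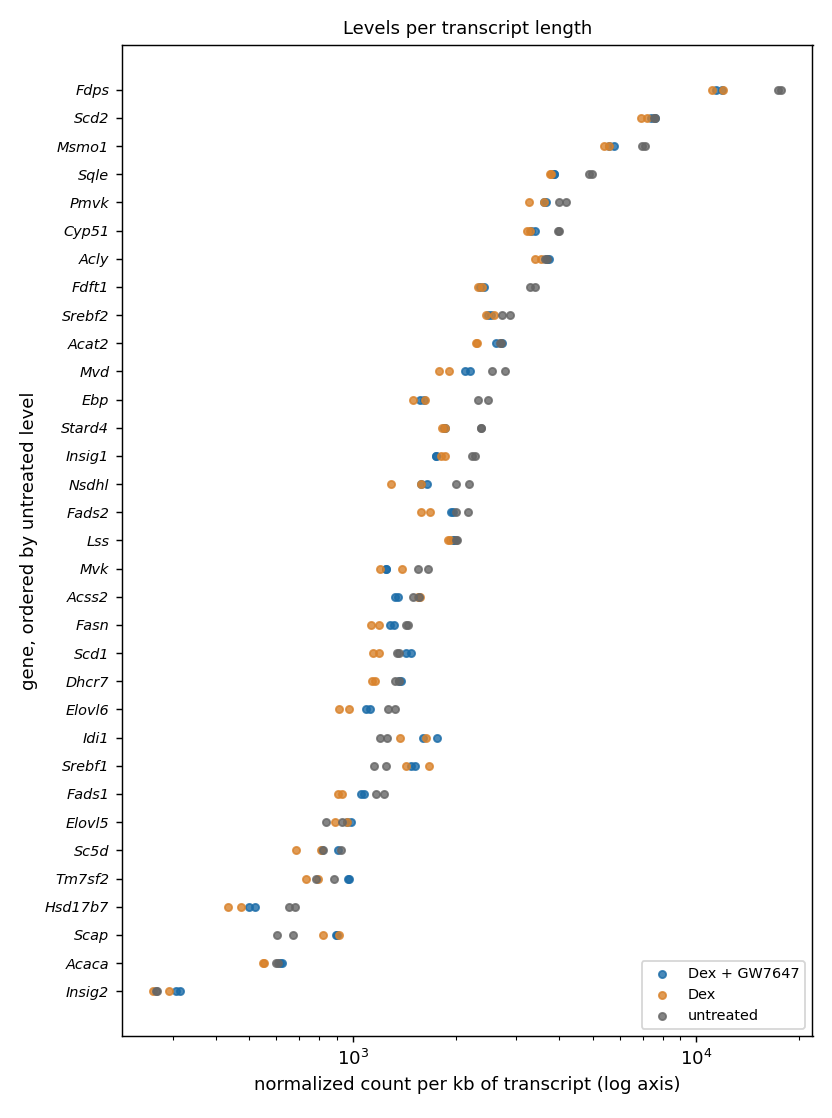
Normalized count per kb of transcript (log axis) for each of the 33 genes, ordered by the untreated level, with a point for every library of the Dex plus GW7647, Dex and untreated groups. Fdps stands above all others at 17495 per kb in untreated cells, and Insig2 stands lowest at 268 per kb.

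Most of the sterol arm was lower in Dex cells than in untreated cells. With a call at an adjusted p of 0.05 or less in edgeR's quasi-likelihood test over 14125 genes, 14 of the 18 sterol genes fell, 1 rose and 3 were not called in Dex against untreated cells. In that comparison 51.6% of all tested genes were called, 26.0% lower and 25.5% higher. The median log2 difference of the sterol genes was -0.33, beside 0.01 over all tested genes. The changes were moderate: the called decreases ran from -0.62 to -0.23 on the log2 scale, and 2 genes passed 1.5-fold, a size reached with a call by 22.2% of all tested genes. With both drugs against untreated cells, 12 sterol genes fell and 2 rose, in a comparison with 49.7% of tested genes called, 25.1% lower and 24.7% higher. The sterol median was then -0.30, beside 0.02 over all tested genes. Both comparisons share the untreated libraries, so their values stand side by side and do not back each other up.

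The 2 genes past 1.5-fold with Dex were Ebp and Fdps. Fdps (ENSMUSG00000059743) encodes farnesyl diphosphate synthase, which makes the last isoprenoid shared by sterols, ubiquinone and prenylated proteins. It had 15851 and 16411 normalized counts with Dex plus GW7647, 16556 and 15389 with Dex, and 23903 and 24452 without treatment. All 4 treated libraries lay close together and the untreated libraries stood apart above them. The log2 difference was -0.60 ± 0.05 (SE) for Dex against untreated (edgeR adjusted p = 5.78e-06) and -0.58 ± 0.05 for both drugs against untreated (edgeR adjusted p = 7.51e-06). Ebp (ENSMUSG00000031168), a sterol isomerase late in the pathway, had 2805 and 2732 normalized counts with Dex plus GW7647, 2825 and 2611 with Dex, and 4045 and 4307 without treatment. It fell to 2718 ± 151 with Dex, against 4176 ± 185 in untreated cells, a log2 difference of -0.62 ± 0.06 (edgeR adjusted p = 9.34e-06). For both drugs against untreated it fell by 0.59 ± 0.06 on the log2 scale (edgeR adjusted p = 1.48e-05).

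The upstream enzymes moved less evenly. Acat2, which joins acetyl-CoA units, fell by 0.23 ± 0.05 with Dex but differed by -0.01 with both drugs (95% interval -0.11 to 0.09). Mvk and Pmvk, the kinases acting on mevalonate, fell with Dex by 0.30 and 0.25 and with both drugs by 0.36 and 0.17 on the log2 scale. The call of Pmvk with both drugs was lost without either Dex plus GW7647 library (adjusted p of 0.115 and 0.170) or untreated replicate 1 (0.158). Mvd, the decarboxylase that follows them, fell by 0.53 ± 0.06 with Dex and by 0.30 ± 0.06 with both drugs. Of the enzymes of squalene and lanosterol, Fdft1 (squalene synthase) fell by 0.51 ± 0.05 and 0.49 ± 0.05 in these comparisons, and Sqle (squalene epoxidase) by 0.38 ± 0.04 and 0.35 ± 0.04. Lss (lanosterol synthase) was not called in either, with -0.08 for Dex (95% interval -0.17 to 0.02) and -0.04 for both drugs (-0.13 to 0.06). Lss stands between Sqle and Cyp51 in the pathway, and both of these fell.

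Several enzymes that process lanosterol fell together. Cyp51, the lanosterol demethylase, had 12790 ± 219 normalized counts with Dex and 15663 ± 86.7 without treatment. Msmo1, Nsdhl and Hsd17b7, which act in turn to remove the methyl groups at another carbon, fell with Dex by 0.36, 0.54 and 0.55 on the log2 scale, and with both drugs by 0.31, 0.37 and 0.39. Relative to its level, Nsdhl had the widest gap between Dex libraries of all 33 genes, 0.29 on the log2 scale, with 2803 and 3431 normalized counts. Stard4, a carrier that moves sterols between membranes, fell by 0.36 ± 0.04 and 0.35 ± 0.04. Sc5d, a sterol desaturase, missed the threshold with Dex at -0.22 ± 0.09 (edgeR adjusted p = 0.0532). It was called lower there by DESeq2 (adjusted p = 0.0262), with RLE scaling (0.0477), without the filter on low counts (0.00176), without Dex replicate 2 (0.00327) and without untreated replicate 2 (0.0313).

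Idi1 ran against its neighbours. It encodes the isopentenyl diphosphate isomerase that supplies the substrates of Fdps. It had 4839 and 5320 normalized counts with both drugs, 4168 and 4938 with Dex, and 3801 and 3647 without treatment. All treated libraries were above both untreated ones, with log2 differences of 0.29 ± 0.08 for Dex (edgeR adjusted p = 0.0121) and 0.45 ± 0.08 for both drugs (edgeR adjusted p = 0.00109). The Dex call was lost without Dex replicate 2 (adjusted p = 0.0826) or without untreated replicate 2 (adjusted p = 0.0651), while the call for both drugs held under every alternative run. Within a library, where scaling cancels, the counts of Fdps and Idi1 can be set against each other between groups, though not as levels. The count of Fdps was 3.27 and 3.08 times that of Idi1 with both drugs, 3.97 and 3.12 times with Dex, and 6.29 and 6.71 times without treatment. Idi1, like the other genes given per library below, was singled out after its values were seen. Fdps and Ebp and the regulators were given in full by a rule on size and role. In the later annotation, 9.21% of Idi1's exon bases overlap Gm48574 on the opposite strand, 26.7% of those of Fdps overlap Gm43738 on the same strand, and 18.3% of those of Fdft1 overlap Ctsb on the opposite strand. Whether counting used the strand is not stated, so it is not known whether the overlaps on the opposite strand affected these counts. The overlap of Fdps is on the same strand and does not depend on that setting. No values were found here for Gm48574 or Gm43738. Ctsb differed by -0.23 ± 0.05 with Dex and -0.23 ± 0.05 with both drugs.

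**Figure D3:**
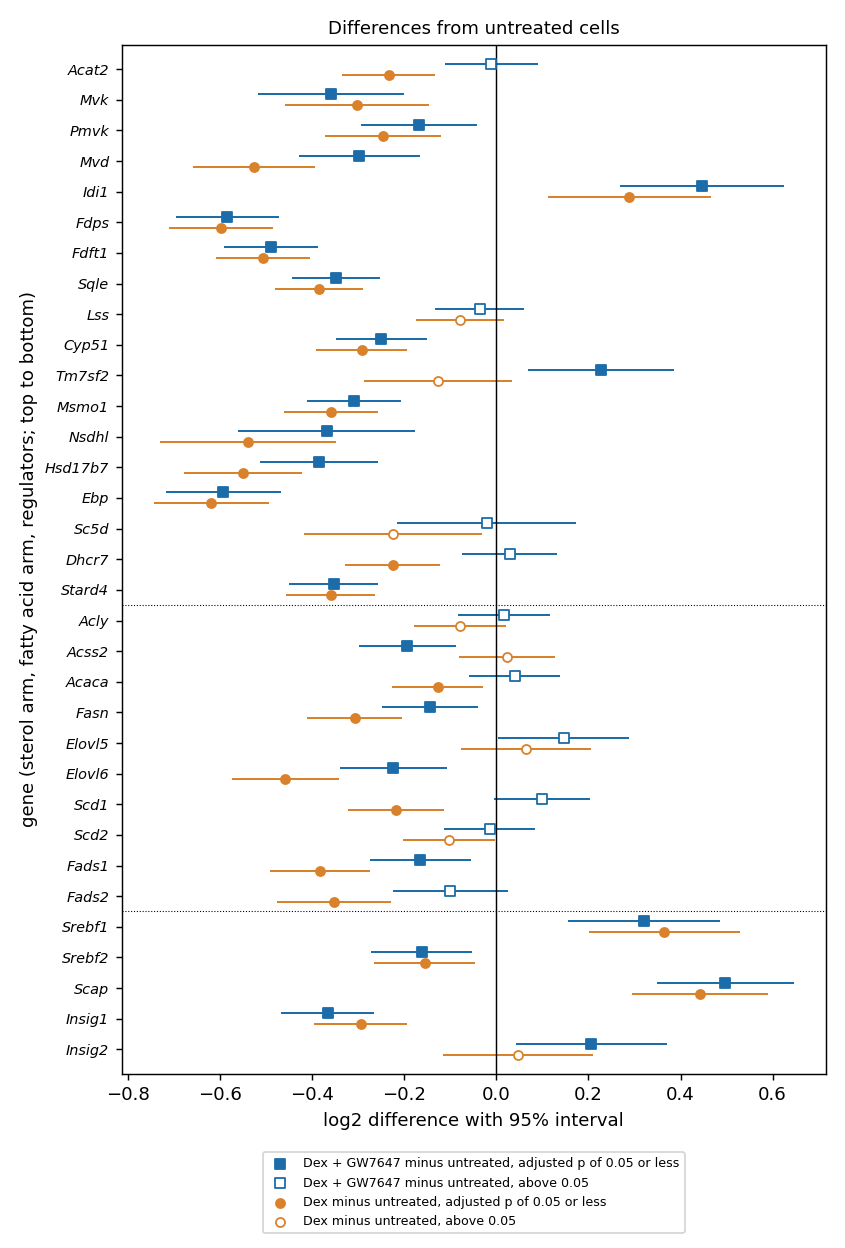
Log2 differences from untreated cells with 95% intervals for the 33 genes, with Dex plus GW7647 as blue squares and Dex as orange circles. Filled symbols have an edgeR adjusted p of 0.05 or less. Ebp and Fdps lie near -0.6 for both, Idi1, Srebf1 and Scap lie to the right of 0, and most fatty acid genes, though not Acss2 or Elovl5, lie closer to 0 with both drugs than with Dex.

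Markers of other cell types moved with the groups as well. Beside the marker calls below, 26.0% of all tested genes were called lower and 25.5% higher with Dex. With GW7647 added to Dex, 7.58% of all tested genes were called lower and 2.15% higher. The summed normalized counts of 11 granulocyte markers were 4423 to 4522 with both drugs, 7154 to 7484 with Dex and 15368 to 16383 without treatment, and 9 of the 11 tested fell with Dex. The 11 megakaryocyte markers summed to 15825 to 15959 with both drugs, 21252 to 23185 with Dex and 45944 to 48424 without treatment, and 10 fell with Dex. The 10 mast cell and basophil markers summed to 5657 to 5758 with both drugs, 9791 to 10135 with Dex and 6218 to 6233 without treatment, with 7 of 8 tested lower when GW7647 was added. With Dex against untreated cells 6 of these 8 were lower and 2 higher, and Hdc made up most of the Dex sum (8876 and 8485 with Dex, against 1749 and 1748 without treatment). Macrophage markers summed to 506 to 514 with both drugs, 701 to 752 with Dex and 1646 to 1720 without treatment, with Cd163 and C1qa at 0 in all libraries. Endothelial and stromal markers summed to 941 to 977 with both drugs, 1331 to 1339 with Dex and 1195 to 1340 without treatment. Pdgfrb made up the largest part of the Dex sum (722 and 702 with Dex, against 182 and 260 without treatment). Of the 5 endothelial and stromal markers tested, 1 was higher and 2 lower with Dex. The 12 hepatoblast markers, of a cell type rich in lipid synthesis, summed to 228 to 249 with both drugs, 331 to 372 with Dex and 141 to 158 without treatment, with Serpina1a at 0, and only 6 passed the filter. Of these 6 hepatoblast markers, 3 were higher and 0 lower with Dex. Apoa1 made up the largest part of the Dex sum (158 and 153 with Dex, against 9.78 and 4.62 without treatment). Alb had at most 4.69 normalized counts in any library. Of 11 erythroid markers 8 fell and 1 rose with Dex. The part of these shifts in the lipid genes' differences was not tested.

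Promoter sequence was set beside these changes because most of the sterol genes moved together. RefSeq windows of 300 bases on build GRCm38.p6, from 250 bases before to 50 after a gene's start, were found for 26 of the 33 genes. The letters CCAAT, or ATTGG on the other strand, occur in at least 1 window of 21 of the 26 genes (80.8%), against 43.4% of the 9986 tested genes with a window and 41.1% of all 27025 genes with one. By arm, they occur in 13 of 14 sterol genes, 4 of 7 fatty acid genes and 4 of 5 regulators. The letters GGGCGG, or CCGCCC on the other strand, occur in 21 of the 26 genes, against 68.0% of tested genes. These are 13 of 14 sterol genes, 3 of 7 fatty acid genes and 5 of 5 regulators. The letters TCACNCCAC, or GTGGNGTGA, a form of the sterol response element, occur in none of the 26 and in 1.44% of tested genes, which says only that these letters are not in these windows. CCAAT is the motif bound by the NF-Y complex, a partner of SREBP at sterol genes. No binding was measured in this study, and a match is not a binding site. Elovl6, Fads2 and Acaca, the fatty acid genes with a window but no CCAAT match, were called lower with Dex. Acly, Acss2 and Elovl5 had a match and were not called. In the sterol arm Acat2 had no match and fell, and Lss, Sc5d and Tm7sf2 had a match and were not called. The other sterol genes with a window had a match and, apart from Idi1, fell. Whether a match goes with a change was not tested. Of the windows with a match, those shown are of Ebp and Nsdhl, 2 sterol genes that fell, Fasn, a fatty acid gene that fell, and Idi1, which rose. The sequences read from 5′ to 3′ on the gene's strand, and capitals mark CCAAT or ATTGG. In Fasn, 2 matches overlap as CCAATTGG. The windows are chrX:8193463-8193762 on the minus strand for Ebp, chrX:72918271-72918570 on the plus strand for Nsdhl, chr11:120824498-120824797 on the minus strand for Fasn and chr13:8885356-8885655 on the plus strand for Idi1.
Ebp: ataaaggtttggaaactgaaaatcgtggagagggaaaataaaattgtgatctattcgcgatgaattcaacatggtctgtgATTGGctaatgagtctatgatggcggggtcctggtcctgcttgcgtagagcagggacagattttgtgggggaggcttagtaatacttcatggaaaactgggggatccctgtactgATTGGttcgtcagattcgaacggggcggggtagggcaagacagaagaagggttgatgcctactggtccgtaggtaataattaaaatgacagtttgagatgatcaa
Nsdhl: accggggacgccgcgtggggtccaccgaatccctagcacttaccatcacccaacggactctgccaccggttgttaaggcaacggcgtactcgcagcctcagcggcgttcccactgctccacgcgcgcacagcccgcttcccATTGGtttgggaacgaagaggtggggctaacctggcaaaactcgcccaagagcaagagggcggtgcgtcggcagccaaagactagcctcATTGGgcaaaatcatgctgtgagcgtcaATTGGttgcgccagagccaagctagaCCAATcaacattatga
Fasn: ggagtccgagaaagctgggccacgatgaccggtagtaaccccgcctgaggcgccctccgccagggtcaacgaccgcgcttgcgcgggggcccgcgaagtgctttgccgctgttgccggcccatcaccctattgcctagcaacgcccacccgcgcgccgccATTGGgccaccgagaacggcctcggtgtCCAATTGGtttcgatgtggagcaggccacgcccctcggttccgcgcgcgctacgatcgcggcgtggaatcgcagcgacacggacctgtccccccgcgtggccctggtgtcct
Idi1: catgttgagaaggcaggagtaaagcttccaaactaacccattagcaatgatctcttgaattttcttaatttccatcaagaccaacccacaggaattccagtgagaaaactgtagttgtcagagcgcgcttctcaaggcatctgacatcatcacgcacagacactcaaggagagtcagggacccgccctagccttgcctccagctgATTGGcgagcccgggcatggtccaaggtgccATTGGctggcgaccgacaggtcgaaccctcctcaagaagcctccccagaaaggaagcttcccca

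Members of the fatty acid arm were also lower in Dex cells. In Dex against untreated cells, 6 of its 10 genes fell, none rose and 4 were not called, with a median log2 difference of -0.17. The share called, in either direction, was thus near the 51.6% of all tested genes, of which 26.0% were called lower. No fatty acid gene was called higher by edgeR, by DESeq2 or by limma-trend there, and none was higher at an unadjusted p under 0.05. With both drugs, 4 genes fell and 6 were not called, beside 49.7% of all tested genes called and 25.1% called lower, with a median of -0.06, and 1 gene, Elovl5, was higher at an unadjusted p under 0.05. No fatty acid gene reached 1.5-fold in either comparison. The 4 decreases with both drugs came to 0 without Dex plus GW7647 replicate 1, 2 without its replicate 2 and 1 without untreated replicate 2. The counts of this arm also depended on scaling. Scaling by total counts moved the median of all tested genes by over 0.1, to 0.14 in both comparisons, and the share of calls that were increases to 67.8%, against 49.5% with TMM scaling, for Dex, and to 66.8%, against 49.6%, for both drugs. Under it 2 fatty acid genes were called higher and 4 lower with Dex, and 4 were called higher and 0 lower with both drugs. The sterol arm still had 10 genes lower with Dex and 11 with both drugs under total count scaling, with medians of -0.20 and -0.18.

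Of the enzymes that start the fatty acid arm, Acly and Acaca differed little from untreated cells with Dex, while Fasn fell. Acly, ATP citrate lyase, which makes cytosolic acetyl-CoA from citrate, had 15220 ± 452 normalized counts with Dex and 16069 ± 195 without treatment, a log2 difference of -0.08 (95% interval -0.18 to 0.02). Acaca, acetyl-CoA carboxylase, fell by 0.13 ± 0.04 with Dex (edgeR adjusted p = 0.0343). That call was lost in 10 of 13 alternatives, and under total count scaling the difference was 0.00. Fasn, the fatty acid synthase, fell by 0.31 ± 0.05 with Dex, a call held in all 13 alternatives at -0.34 to -0.18 on the log2 scale, and by 0.14 ± 0.05 with both drugs, where the call was lost without any one library of either group (adjusted p of 0.0706 to 0.204).

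Among the elongases and desaturases, Elovl6, Fads1, Fads2 and Scd1 fell with Dex, while Elovl5 and Scd2 were not called. Elovl6, which elongates palmitate, had 6528 and 6698 normalized counts with Dex plus GW7647, 5421 and 5821 with Dex, and 7889 and 7557 without treatment. The 3 groups did not overlap, and the Dex plus GW7647 libraries lay between the others. The log2 difference from untreated was -0.46 ± 0.05 for Dex (edgeR adjusted p = 4.8e-05) and -0.22 ± 0.05 for both drugs (edgeR adjusted p = 0.00509, and 0.0601 without Dex plus GW7647 replicate 1). Fads1 and Fads2, the desaturases of polyunsaturated fatty acids, fell with Dex by 0.38 ± 0.05 and 0.35 ± 0.06, whereas Elovl5, the elongase of the same series, differed by 0.06 (95% interval -0.08 to 0.21). Scd2, the most abundant of the arm per length, differed by -0.10 (95% interval -0.20 to -0.0033) with Dex and was not called. Scd1, the other stearoyl-CoA desaturase measured, fell by 0.22 ± 0.05.

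The regulators moved in both directions. Scap (ENSMUSG00000032485), the escort of SREBP, had 3818 and 3792 normalized counts with Dex plus GW7647, 3856 and 3473 with Dex, and 2554 and 2837 without treatment. It rose by 0.44 ± 0.07 with Dex (edgeR adjusted p = 0.000317) and by 0.50 ± 0.07 with both drugs (edgeR adjusted p = 0.000164) on the log2 scale, and every treated library was above both untreated ones. In the later annotation 13.2% of its exon bases overlap 5830462I19Rik, which had at most 75.6 normalized counts in any library. Srebf1 (ENSMUSG00000020538), the SREBP gene best known for fatty acid synthesis, had 6374 and 6534 normalized counts with both drugs, 7169 and 6132 with Dex, and 4947 and 5382 without treatment. It rose by 0.37 ± 0.07 and 0.32 ± 0.07 against untreated cells (edgeR adjusted p = 0.00217 with Dex and 0.00489 with both drugs), also without overlap. Gene counts do not separate the isoforms of Srebf1.

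Srebf2 (ENSMUSG00000022463), the SREBP gene best known for sterol synthesis, had 12584 and 12857 normalized counts with Dex plus GW7647, 13097 and 12456 with Dex, and 13841 and 14623 without treatment. It fell by 0.16 ± 0.05 in each comparison with untreated cells (edgeR adjusted p = 0.0233 for Dex and 0.0202 for both drugs). Under total count scaling Srebf2 was not called. It then differed by -0.03 with Dex (edgeR adjusted p = 0.684) and by -0.04 with both drugs (0.489). The fit of the 4 libraries of the 2 groups also lost the Dex call (edgeR adjusted p = 0.0558). The Dex call was lost without any one of 4 libraries (adjusted p of 0.0563 without Dex plus GW7647 replicate 1, 0.0576 without its replicate 2, 0.0587 without Dex replicate 2 and 0.152 without untreated replicate 2). The call for both drugs was lost without either Dex plus GW7647 library (0.152 and 0.0902) or untreated replicate 2 (0.137). Within a library, the count of Srebf1 was 0.507 and 0.508 of that of Srebf2 with both drugs, 0.547 and 0.492 with Dex, and 0.357 and 0.368 without treatment. The balance of the pair was shifted to Srebf1 in all 4 treated libraries, whatever the scaling.

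Insig1 (ENSMUSG00000045294), itself a target of SREBP in mammals, had 4711 and 4709 normalized counts with both drugs, 5011 and 4888 with Dex, and 6144 and 5997 without treatment. It fell by 0.29 ± 0.04 with Dex (edgeR adjusted p = 0.000378) and by 0.37 ± 0.05 with both drugs (edgeR adjusted p = 9.67e-05), and the treated and untreated libraries did not overlap. Insig2 (ENSMUSG00000003721), its paralog, had 824 and 847 normalized counts with both drugs, 709 and 788 with Dex, and 720 and 727 without treatment. It differed by 0.05 (95% interval -0.12 to 0.21) with Dex and rose by 0.21 ± 0.07 with both drugs (edgeR adjusted p = 0.0391). That call held in 6 of 14 alternatives. It was lost with DESeq2 (adjusted p = 0.166), RLE scaling (0.0539), the replicate block (0.0502) and the authors' deposited test (0.115). It was also lost when any one library of those groups was left out (log2 differences of 0.19 to 0.23). In counts within a library, the ratio of Insig1 to Insig2 was 5.72 and 5.56 with both drugs, 7.07 and 6.20 with Dex, and 8.54 and 8.25 without treatment. The 5 regulators had a median log2 difference of 0.05 with Dex and 0.21 with both drugs, which sums up opposite movements.

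**Figure D4:**
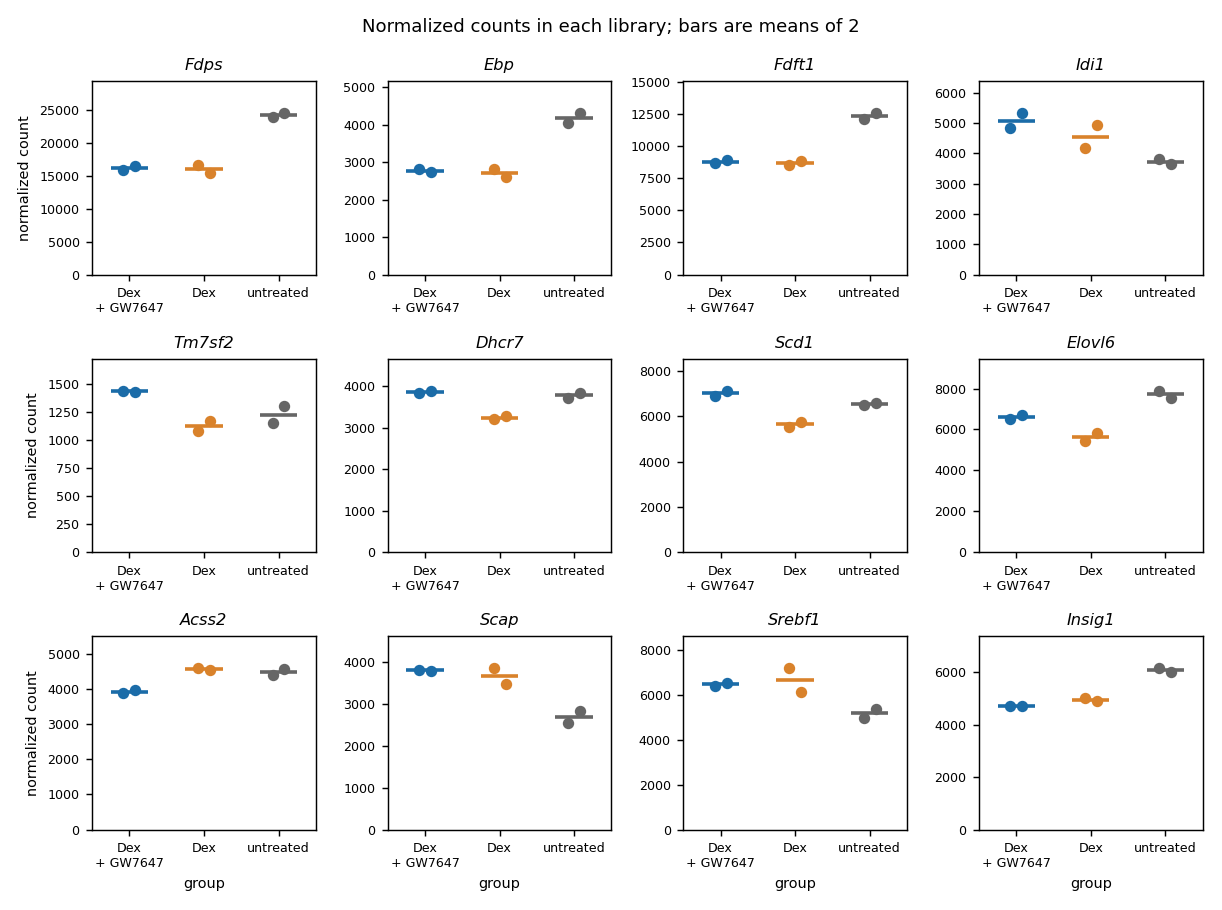
Normalized counts of 12 genes in each library (points) with group means (bars), for the Dex plus GW7647, Dex and untreated groups, with each axis starting at 0. Fdps, Ebp and Fdft1 are lower in both treated groups, Idi1, Scap and Srebf1 are higher, and Tm7sf2, Dhcr7, Scd1 and Elovl6 are higher with both drugs than with Dex.

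GW7647 added to dexamethasone raised 9 of the 33 genes and lowered 1. Against Dex cells, Dex plus GW7647 cells had 4 of 18 sterol genes higher and none lower, and 5 of 10 fatty acid genes higher and 1 lower. Of all tested genes 9.73% were called in that comparison, 2.15% higher and 7.58% lower. The median log2 difference was 0.06 for the sterol genes and 0.17 for the fatty acid genes, beside 0.00 over all tested genes. In 9 of the 10 fatty acid genes both Dex plus GW7647 libraries were above both Dex libraries, an order found in 26.3% of all tested genes. All called changes were below 1.5-fold, a size reached with a call by 3.92% of all tested genes. No sterol gene was called lower by edgeR, DESeq2 or limma-trend, and none was lower at an unadjusted p under 0.05.

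The largest increases were those of Tm7sf2 and Scd1. Tm7sf2, a sterol reductase, had 1436 and 1429 normalized counts with Dex plus GW7647, 1077 and 1167 with Dex, and 1149 and 1297 without treatment. It was highest in the libraries with both drugs, 0.35 ± 0.07 above Dex on the log2 scale (edgeR adjusted p = 0.0112) and 0.23 ± 0.07 above untreated (edgeR adjusted p = 0.0233). The second of these calls was lost with DESeq2 (log2 difference 0.22, adjusted p = 0.0599). It was also lost without either Dex plus GW7647 library (log2 difference 0.23 in each) or untreated replicate 1 (0.14). In the later annotation 12.1% of the exon bases of Tm7sf2 overlap Vps51 on the same strand. Vps51 differed by 0.02 ± 0.07 between Dex plus GW7647 and Dex. Against untreated cells, Vps51 differed by -0.37 ± 0.07 with both drugs and -0.40 ± 0.07 with Dex. Scd1 had 6926 and 7138 normalized counts with both drugs, 5527 and 5768 with Dex, and 6528 and 6602 without treatment. It rose by 0.32 ± 0.05 against Dex (edgeR adjusted p = 0.0021) and was called in every alternative run, which held for no other of the 10 genes called. Its paralog Scd2 had 40927 ± 805 normalized counts with both drugs and 38493 ± 1120.1 with Dex, a log2 difference of 0.09 (95% interval -0.01 to 0.19). The count of Scd1 was 0.172 of that of Scd2 in each library with both drugs, 0.147 in each with Dex, and 0.158 and 0.160 without treatment, so this ratio separated all 3 groups.

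Dhcr7, which makes cholesterol in the last step of a branch of the pathway, had 3839 and 3894 normalized counts with both drugs, 3208 and 3275 with Dex, and 3729 and 3848 without treatment. It rose by 0.25 ± 0.05 against Dex (edgeR adjusted p = 0.00675), and its difference from untreated was 0.03 (95% interval -0.07 to 0.13). Acat2 and Mvd rose by 0.22 ± 0.04 and 0.23 ± 0.06 against Dex. In the fatty acid arm, Elovl6, Fads1 and Fads2 rose by 0.23, 0.22 and 0.25 and Acaca by 0.17 on the log2 scale. Fasn missed the threshold at 0.16 ± 0.05 (edgeR adjusted p = 0.0541), but was called higher by DESeq2 (adjusted p = 0.0264), by limma-trend (0.0488), without the filter on low counts (0.0285) and without Dex replicate 1 (0.0358). Ebp and Fdps, which had the largest decreases with Dex, differed by 0.03 (95% interval -0.10 to 0.15) and 0.01 (-0.10 to 0.13) with GW7647 added and were not called.

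Acss2 alone among the 33 genes was called lower with GW7647 added. It encodes the synthetase that makes acetyl-CoA from acetate. It had 3888 and 3972 normalized counts with Dex plus GW7647, 4593 and 4536 with Dex, and 4400 and 4585 without treatment. The libraries with both drugs lay below the other 4, by 0.22 ± 0.05 against Dex (edgeR adjusted p = 0.0168) and by 0.19 ± 0.05 against untreated (edgeR adjusted p = 0.00666, and 0.0796 without Dex plus GW7647 replicate 1 and 0.0512 without untreated replicate 2), whereas Dex differed from untreated by 0.02 (95% interval -0.08 to 0.13). In the later annotation Acss2 shares 1.94% of its exon bases with Ggt7 and 3.89% with Gss, both on the opposite strand. Between Dex plus GW7647 and Dex, Ggt7 differed by -0.40 ± 0.09 and Gss by -0.0031 ± 0.05. Against untreated cells, they differed by 0.59 ± 0.10 and -0.76 ± 0.05 with both drugs. No regulator was called between Dex plus GW7647 and Dex by edgeR, DESeq2 or limma-trend, and 1, Insig2, was higher at an unadjusted p under 0.05.

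These calls rested on both libraries with GW7647. All 10 kept their sign in every alternative, but without either Dex plus GW7647 library only Scd1 was still called, while the number of all tested genes called higher dropped to 64 and 54, against 303 with all libraries. Without Dex replicate 2, 7 sterol genes were called higher, and without Dex replicate 1, 3 fatty acid genes. Acaca lost its call without any one of the 6 libraries (adjusted p of 0.0546 to 0.297), Elovl6 and Fads1 without Dex replicate 1 (0.0733 and 0.063), and Mvd without Dex replicate 2 (0.0798). The Dex libraries enter both the comparison with untreated cells and the comparison with both drugs, so decreases in the one and increases in the other are not independent.

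**Figure D5:**
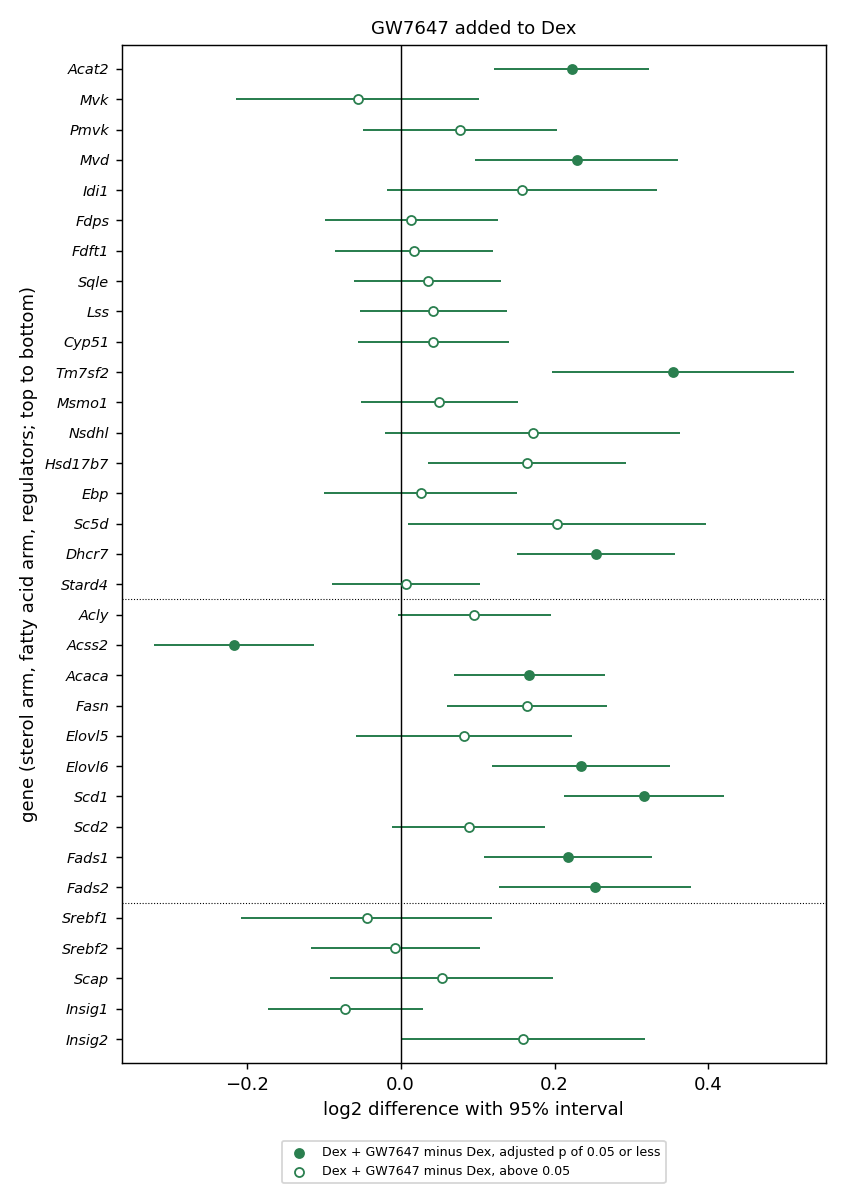
Log2 difference of Dex plus GW7647 minus Dex with its 95% interval for each of the 33 genes in pathway order. Filled points have an edgeR adjusted p of 0.05 or less. Filled points lie between 0.17 and 0.35 except Acss2 at -0.22, and Fdps, Fdft1, Ebp and Stard4 lie within 0.03 of 0.

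Other genes of these pathways, taken from lists chosen by function but also with earlier results known, moved without a common direction. Over all tested genes, 25.5% were called higher and 26.0% lower with Dex, and 24.7% higher and 25.1% lower with both drugs. Of 21 further sterol genes, 5 were higher and 3 lower with Dex, and 5 higher and 5 lower with both drugs against untreated cells. Of 27 tested genes among 33 further fatty acid genes, 7 were higher and 10 lower with Dex, and 9 higher and 10 lower with both drugs. Of 20 tested genes among 22 further regulators, 2 were higher and 7 lower with Dex, and 4 higher and 7 lower with both drugs. The medians of these lists lay between -0.10 and 0.11 on the log2 scale in both comparisons. With GW7647 added to Dex, none of the further sterol genes was called by edgeR or limma-trend and 1 by DESeq2, while 7 were higher and 4 lower at an unadjusted p under 0.05. Of all 14125 tested genes, 1329 were higher and 2104 lower at that unadjusted p. The further fatty acid list had 1 gene called higher, Agpat3, beside 2.15% of all tested genes called higher and 7.58% lower.

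Among the further sterol genes, Lpin1, a phosphatidate phosphatase, had 2378 ± 40.7 normalized counts with both drugs, 2579 ± 54.6 with Dex and 1777 ± 33.3 without treatment. It rose by 0.54 ± 0.05 with Dex, and Fdx1, an electron donor for mitochondrial steroid enzymes, by 0.63 ± 0.08. Tmem97, a sterol-regulated membrane protein, fell by 0.46 ± 0.07 with Dex, and Cyb5r3, a reductase that passes electrons to cytochrome b5, fell by 0.38 ± 0.05. Dhdds, which makes dolichol precursors from farnesyl diphosphate, rose by 0.24 ± 0.05 with both drugs.

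The largest change in these lists was that of Prkab2, a regulatory subunit of AMP-activated kinase, which phosphorylates acetyl-CoA carboxylase. It had 432 ± 40.5 normalized counts with both drugs, 391 ± 11.8 with Dex and 2309 ± 90.5 without treatment, and it fell by 2.56 ± 0.07 with Dex on the log2 scale. The other subunit of this kind, Prkab1, had 13436 ± 261 with both drugs, 12966 ± 162 with Dex and 8880 ± 148 without treatment, and it rose by 0.55 ± 0.04 with Dex. Mid1ip1, which promotes assembly of acetyl-CoA carboxylase, fell by 0.64 ± 0.05, and Agpat3, an acyltransferase of phospholipid synthesis, fell by 1.14 ± 0.06 with Dex and was 0.28 ± 0.07 higher with GW7647 added.

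Among the further regulators, Lpin2, another phosphatidate phosphatase, had 16686 ± 172 normalized counts with both drugs, 17980 ± 149 with Dex and 47916 ± 155 without treatment, a decrease of 1.41 ± 0.04 with Dex. The 3 subunits of NF-Y, Nfya, Nfyb and Nfyc, fell with Dex by 0.28 ± 0.05, 0.33 ± 0.06 and 0.35 ± 0.05. Rnf139, a ubiquitin ligase of the endoplasmic reticulum, fell by 0.39 ± 0.07 with Dex.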

How the data were processed

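Raw read counts per gene and library were used as the authors deposited them, in 2 tables of 37620 Ensembl genes. Their shared count columns were identical. Per the submitters' processing notes, reads were handled with TopHat 1.4.1, HTSeq and DESeq on builds mm9 and NCBIM37. The strand setting and annotation release are not given in the sources used here. A normalized signal, deposited beside the counts, equals the count over 1 size factor per library. The authors' fold ratio and p-value with its adjusted form, per the file headers, served only as an alternative. The deposited log2 column was not used.

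Symbols came from GENCODE M21 (GRCm38), found for 32897 genes (87.45%). The members and gene lists were chosen with earlier results of these data known.

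All 6 libraries entered 1 fit in edgeR 4.0.16 (R 4.3.3) with a coefficient per group and no block: TMM scaling, filterByExpr with a minimum count of 10 (14125 genes with 99.971% of counts), the quasi-likelihood test with 3 residual degrees of freedom, Benjamini-Hochberg adjustment over all tested genes and a call at 0.05 or less. TMM factors were 1.02 to 1.04 in treated and 0.943 to 0.945 in untreated libraries. Errors of log2 differences are SE. Per-library values are given in full for members past 1.5-fold with a call and for the regulators, and further pathway genes are named by the smallest p, up to 4 per list and comparison, except for a gene not reported here. Libraries of a group differed by more than sampling noise (chi-square per degree of freedom of 3.04 for Dex plus GW7647, 14.9 for Dex and 6.31 for untreated). Alternatives were DESeq2 1.42.0, limma 3.58.1 (trend, prior count 2), RLE and total count scaling, no filter, the 4 libraries of the 2 groups, a replicate block, the authors' test and leaving out each library. The fits were tested on simulated data. The labels do not say whether replicate numbers pair libraries. Same-numbered deviations correlated by 0.15 between Dex plus GW7647 and Dex. The values were -0.05 between Dex plus GW7647 and untreated and -0.21 between Dex and untreated. With 2 libraries a group, these values cannot settle it.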

Additional observations from a re-analysis of the deposited data

How the results depend on the processing

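With 2 libraries a group, calls near the threshold often rest on single libraries, and differences within about 0.1 on the log2 scale were not resolved. The direction of every called member held in every alternative except that of Acaca with Dex. DESeq2, limma-trend and RLE scaling gave 21 to 26 called members against untreated cells and 10 or 11 with GW7647 added, beside 25 and 23 against untreated and 10 with GW7647 added. The authors' deposited test called 22 members for both drugs against untreated and 9 with GW7647 added. The cause of the changes below was not tested.

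Total count scaling called 5451 genes higher with Dex and 5480 with both drugs against untreated cells, against 3606 and 3486. Among members it called 2 fatty acid genes higher and 1 regulator lower with Dex, and 4 fatty acid genes higher, 0 lower and 1 regulator lower with both drugs. Under it the log2 differences from untreated changed sign for Lss (0.051 with Dex, 0.083 with both drugs), Tm7sf2 (0.0032), Acly (0.051) and Acaca (0.0023) with Dex, for Scd2 (0.027 with Dex, 0.10 with both drugs), and for Acat2 (0.11), Sc5d (0.10) and Fads2 (0.020) with both drugs. Stard4 changed sign (-0.0037) for GW7647 added. Without the filter on low counts, Acat2 (0.0075) and Scd2 (0.0042) changed sign with both drugs against untreated, 1 fatty acid gene was called higher there, and 578 genes were called higher with GW7647 added. DESeq2 called 1 sterol gene higher with both drugs. The 4 libraries of the 2 groups gave 1 regulator lower with Dex. The authors' deposited test called 171 genes higher with GW7647 added. The replicate block gave 154 such genes against 303, and Mvd (adjusted p = 0.0783) and Acaca (adjusted p = 0.0871) were lost there. The labels do not say whether the numbers pair the libraries, so which of the 2 fits is the better one is not settled.

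Leaving out each library in turn gave, for Dex against untreated, 0 to 1 sterol genes higher, 1 to 2 regulators lower, and log2 differences of -0.0056 to 0.053 for Acss2, -0.0097 to 0.14 for Elovl5 and -0.044 to 0.13 for Insig2. For both drugs against untreated it gave 1 to 2 sterol genes higher, 0 to 1 fatty acid genes higher, 0 to 4 fatty acid genes lower, 1 to 2 regulators lower, and -0.034 to 0.017 for Acat2, -0.10 to 0.066 for Sc5d and -0.032 to 0.0072 for Scd2. For GW7647 added it gave 54 to 618 genes higher and 484 to 1111 lower in all, 0 to 7 sterol genes higher, 1 to 4 fatty acid genes higher, 0 to 1 lower, and -0.15 to 0.055 for Mvk, -0.028 to 0.068 for Fdps, -0.0049 to 0.049 for Fdft1, -0.019 to 0.085 for Ebp, -0.0089 to 0.032 for Stard4, -0.14 to 0.074 for Srebf1, -0.033 to 0.030 for Srebf2 and -0.0094 to 0.13 for Scap.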
